A study of Mus musculus with 12 samples.

Results

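The genes that set the G1 checkpoint of the cell cycle were followed across wild-type (WT) and circKat6b-e2 knockdown (KD) mouse embryonic stem cells. They were the D cyclins Ccnd1, Ccnd2 and Ccnd3, their kinases Cdk4 and Cdk6, the inhibitors Cdkn1a, Cdkn1b, Cdkn2a and Cdkn2b, and the retinoblastoma gene Rb1. These 10 genes were chosen with earlier results of these data known and were found by symbol. All 10 were present among the 52636 genes of the count tables and passed the filter on low counts in every comparison. The libraries were made from E14, a mouse embryonic stem cell line, from undifferentiated cells (ESCs) and from day 6 embryoid bodies (EBs), aggregates in which ESCs leave pluripotency and form several lineages. Each of the 4 groups (ESC WT, ESC KD, EB WT and EB KD) held 3 libraries, which the series describes as biological replicates. ESCs were kept on gelatin in serum with LIF, the MEK inhibitor PD0325901 and the GSK3 inhibitor CHIR99021. Sample titles mark the KD as shcircKat6b-e2, an shRNA against a circular RNA of the Kat6b locus. A control shRNA for the WT cells is not mentioned in the labels, which also leave unsaid if the KD line is 1 clone or a pool.

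Progress through G1 is driven by D cyclins, which bind and activate the kinases CDK4 and CDK6. These complexes phosphorylate RB1 and so release E2F transcription factors, which switch on cyclin E and the genes of DNA replication. The INK4 inhibitors encoded by Cdkn2a and Cdkn2b block CDK4 and CDK6, while the CIP/KIP inhibitors encoded by Cdkn1a and Cdkn1b act mainly on CDK2 complexes. Mouse ESCs are known for a short G1 phase that lengthens as they differentiate.

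Total counts ran from 25.4 to 37.8 M per library. ESC WT replicate 2 stood apart from the rest of its stage, with a first principal component score of 90.2 against −36.0 to 6.15 for the other 5 ESC libraries. Poly-T selected mRNA does not measure the circular RNA itself. Its host gene Kat6b was at 89.3, 66.1 and 80.5 CPM (counts scaled to library depth) in ESC WT and 106, 98.7 and 106 CPM in ESC KD libraries, and at 29.1 to 30.8 CPM in EB WT and 60.5 to 62.3 CPM in EB KD. The core pluripotency markers Pou5f1 and Sox2 summed to 1096 to 1550 CPM over the 6 ESC libraries. In EBs their sum was 77.4 to 86.4 CPM in WT and 121 to 140 CPM in KD libraries. All CPM given here were scaled with 1 TMM normalization of the 12 libraries. KD and WT were tested within a stage with the normalization of that stage, so EB fold changes lie 0.06 lower on the log2 scale than the levels imply. A gene counted as called when its p from edgeR's quasi-likelihood test, after Benjamini-Hochberg adjustment over all tested genes, was under 0.05, and SE is the standard error of a log2 fold change.

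**Figure D1:**
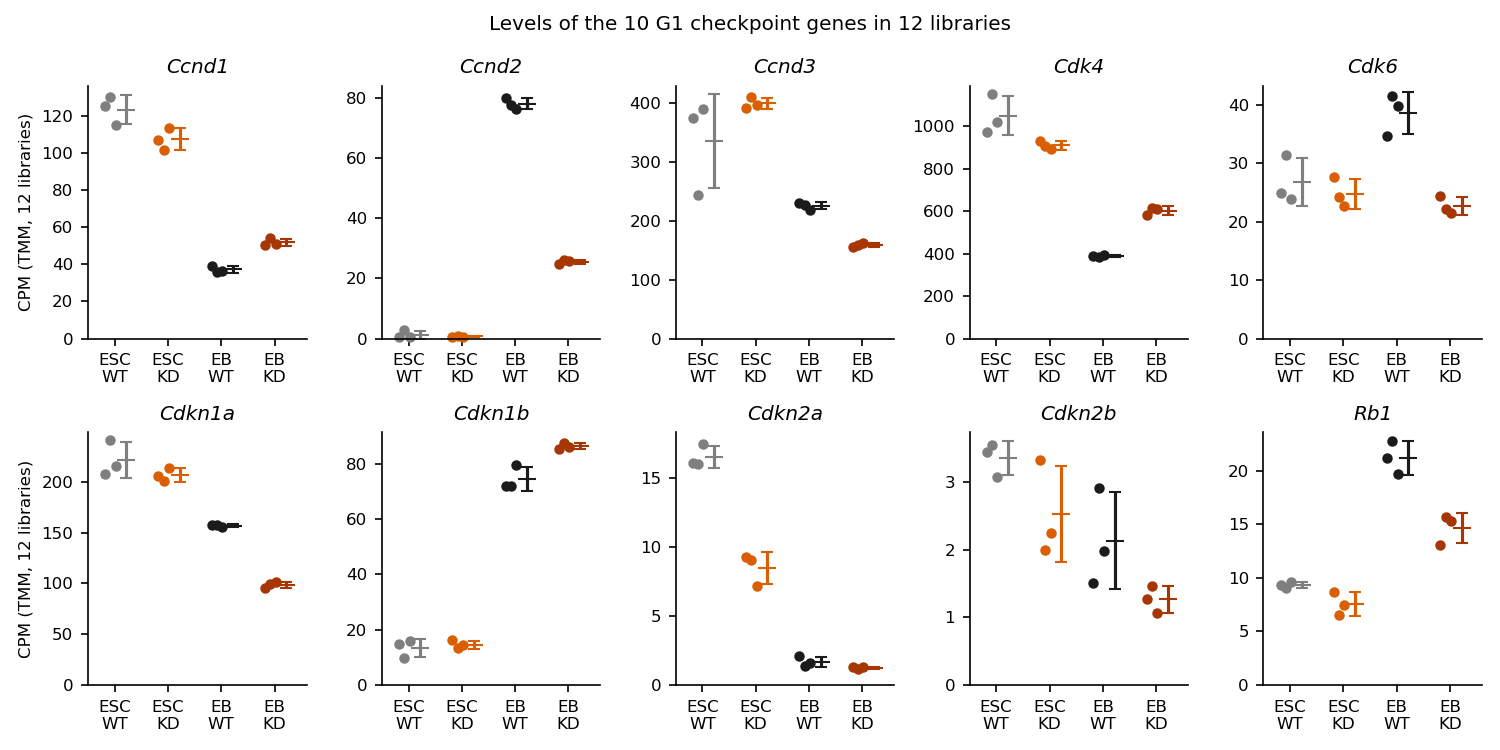
Level of each of the 10 genes (vertical axis, CPM, from 0, a separate scale per gene) in the 4 groups (horizontal axis). Points are the 3 libraries of a group and the bar to their right is the mean with its SD. Ccnd2 was between 0.359 and 2.78 CPM in ESCs and between 24.7 and 80.0 CPM in EBs, and the ESC WT replicate 2 library was the lowest of its group for Ccnd3, at 243 CPM.

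In day 6 EBs, Ccnd1, Cdk4 and Cdkn1b were higher in KD than in WT cells, and Ccnd2, Ccnd3, Cdk6, Cdkn1a, Cdkn2b and Rb1 were lower. Thus 9 of the 10 genes were called, 3 higher and 6 lower, where 55.7% of all 17355 tested genes were called, 28.0% higher and 27.7% lower. The median log2 fold change of the 10 genes was −0.58, against 0.0024 over all tested genes. In undifferentiated ESCs Cdkn2a alone was called, as lower in KD cells, where 0.603% of 16081 tested genes were called by edgeR. That all-gene count, 97, ran from 8 to 1557 with 1 library left out, the highest without ESC WT replicate 2. These are bulk samples, in which a change in the share of a cell type and a change of RNA per cell cannot be told apart.

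Ccnd2 carried the largest difference among the D cyclins. The gene (ENSMUSG00000000184) lies on chr6:127125162-127152193, minus strand, in GRCm38. Its levels were 80.0, 77.8 and 76.4 CPM in EB WT and 24.7, 26.1 and 25.8 CPM in EB KD libraries. The KD libraries were all below the WT libraries and the groups were far apart relative to their spread. The log2 fold change was −1.67 (SE 0.05, edgeR adjusted p = 1.00e-21). In ESCs Ccnd2 was close to absent, with 21, 65 and 9 counts in WT and 15, 24 and 15 counts in KD libraries. Those groups overlapped, and the difference (−0.77, SE 0.73, edgeR adjusted p = 0.566) took the opposite sign without ESC WT replicate 2, the library with 65 counts (0.51, adjusted p = 0.789).

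Ccnd1, a cyclin induced by mitogen and WNT signals (ENSMUSG00000070348, chr7:144929931-144939925, minus strand), moved the other way in EBs. It was at 39.3, 35.8 and 36.7 CPM in EB WT and at 50.6, 54.3 and 50.9 CPM in EB KD libraries, with no overlap (log2 fold change 0.42, SE 0.06, edgeR adjusted p = 4.45e-07). Its ESC levels were higher, at 125, 131 and 115 CPM in WT and 107, 102 and 114 CPM in KD libraries. There the KD libraries were slightly below the WT libraries, a difference that did not pass the test (−0.19, SE 0.08, edgeR adjusted p = 0.195).

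Ccnd3 (ENSMUSG00000034165, chr17:47505051-47599691, plus strand) fell in KD EBs, from 231, 227 and 219 CPM to 156, 159 and 162 CPM. All 3 KD libraries were below all WT libraries (−0.57, SE 0.03, edgeR adjusted p = 6.96e-15). In ESCs it was at 374, 243 and 390 CPM in WT and 392, 411 and 396 CPM in KD libraries. The WT group was spread by replicate 2, and the ESC difference of 0.26 (SE 0.15, edgeR adjusted p = 0.360) was 0.07 without that library.

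The make-up of D cyclin mRNA was compared within each library, as the share of each gene in the sum of the 3 after division of counts by gene length. Ccnd3 held the largest share in every library, from 49.8% to 68.3%, but in ESC WT replicate 2 Ccnd1 was level with it at 49.7%. In EB WT libraries Ccnd1 held 19.3%, 18.3% and 19.1% and Ccnd2 held 19.7%, 19.8% and 19.9%, so that the Ccnd1 share was slightly the lower of the pair in each. In EB KD libraries Ccnd1 held 34.5%, 35.6% and 33.8% and Ccnd2 held 8.44%, 8.56% and 8.56%. The Ccnd1 share was thus 15.7 points higher and the Ccnd2 share 11.3 points lower in KD EBs, and each of the 3 KD libraries lay outside the WT range. The exact two-sided permutation p was 0.10 for each, the smallest that 3 against 3 libraries allow. The Ccnd3 share was 4.46 points lower in KD EBs, but 1.06 points higher when counts were not divided by gene length. The summed level of the 3 genes was 41.9 ± 1.15 CPM per kb in EB WT and 31.8 ± 0.66 CPM per kb in EB KD (SD, n = 3). In ESCs Ccnd2 held at most 0.530%, and Ccnd1 and Ccnd3 were 41.2% ± 7.52 and 58.6% ± 7.78 in WT against 33.4% ± 1.64 and 66.5% ± 1.60 in KD libraries (SD, n = 3). These ESC differences of −7.81 and 7.92 points (exact permutation p = 0.10 for each) were −3.55 and 3.51 points without ESC WT replicate 2. Gene length here is the union of all annotated exons, which can overstate the length of the transcripts in use.

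**Figure D2:**
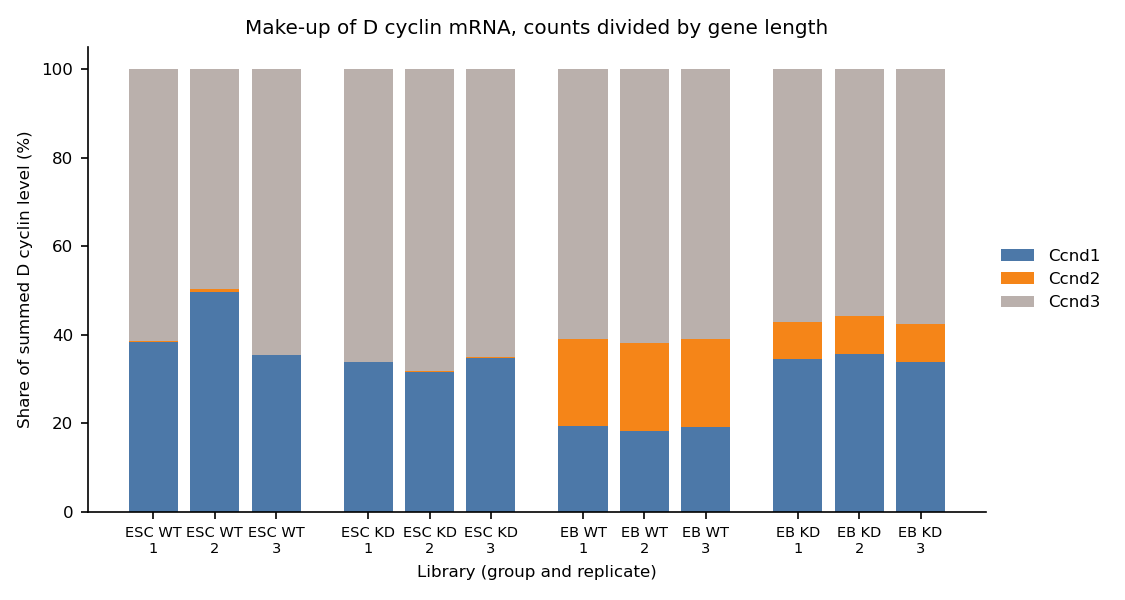
Share of Ccnd1, Ccnd2 and Ccnd3 (vertical axis, % of their sum after division of counts by gene length) in each of the 12 libraries (horizontal axis, group and replicate). Each stacked bar is 1 library. The Ccnd2 segment is near 20% in the EB WT libraries (19.7% to 19.9%), 8.44% to 8.56% in the EB KD libraries, and at most 0.530% in ESC libraries.

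Both kinase genes changed in KD EBs, in opposite directions. Cdk4 (ENSMUSG00000006728, chr10:127063534-127067920, plus strand) was at 388, 383 and 394 CPM in EB WT and at 579, 615 and 611 CPM in EB KD libraries. The groups did not overlap (log2 fold change 0.57, SE 0.03, edgeR adjusted p = 9.58e-17). Cdk6 (ENSMUSG00000040274, chr5:3341485-3531008, plus strand) was at 34.6, 41.4 and 39.8 CPM in EB WT and at 24.4, 22.1 and 21.5 CPM in EB KD libraries. These groups did not overlap either (−0.83, SE 0.08, edgeR adjusted p = 1.75e-10). Per length, Cdk4 made up 97.5% to 98.0% of the summed Cdk4 and Cdk6 level in EB WT libraries and 99.0% to 99.2% in EB KD libraries, so Cdk6 was the minor kinase transcript throughout.

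In ESCs Cdk4 stood at 974, 1150 and 1019 CPM in WT and 928, 906 and 891 CPM in KD libraries. The KD libraries were lower without overlap, a difference that was not called with all 6 libraries (−0.20, SE 0.09, edgeR adjusted p = 0.216). It was called without ESC WT replicate 2 (−0.13, adjusted p = 0.0315) and in the fit of all 12 libraries (−0.21, adjusted p = 0.0399). Cdk6 was at 24.9, 31.4 and 23.8 CPM in ESC WT and 27.6, 24.1 and 22.6 CPM in ESC KD libraries, which overlapped (−0.10, SE 0.14, edgeR adjusted p = 0.712). That Cdk6 value had the opposite sign with library size scaling (0.02) and without ESC WT replicate 2 (0.03).

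The sequence before the Cdk4 start is shown because it holds 4 copies of the E box CACGTG, the element bound by MYC with MAX. Promoter windows came from RefSeq (GRCm38.p6) and covered 250 bases before each transcript start, and 7 of the 10 genes had 1 or more windows, 10 in all. Both strands were searched for the E box, the GC box GGGCGG, the E2F motif GCGGGAA, the AP-1 site TGANTCA and the TATA box TATAAA. The E box and the AP-1 site read alike on both strands. Of 32851 windows of all genes, 6.02% held at least 1 E box and 7 windows (0.0213%) held 4 or more. The Cdk4 E boxes began 172, 118, 98 and 11 bases before the start. Below, the window is given on the plus strand for chr10:127063285-127063533, with E boxes and the GC box in capitals, and without its last base, which is exonic in the count tables' annotation.
Cdk4: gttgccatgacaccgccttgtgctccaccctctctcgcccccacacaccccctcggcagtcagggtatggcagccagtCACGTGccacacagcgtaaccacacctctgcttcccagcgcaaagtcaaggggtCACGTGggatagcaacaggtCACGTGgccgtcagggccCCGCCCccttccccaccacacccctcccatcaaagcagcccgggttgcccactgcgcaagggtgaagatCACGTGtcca

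Among the other member windows, Cdk6 held 1 E box and 1 TATA box, and none held an AP-1 match. GC boxes, present in 32.7% of all windows, lay in Ccnd3, Cdk4, Cdkn1a, Cdkn1b and Cdkn2a windows. A match describes letters in the window and does not show that a factor was bound. Myc itself was at 14.7, 17.5 and 17.8 CPM in EB WT and at 35.1, 37.3 and 36.5 CPM in EB KD libraries (log2 fold change 1.06, SE 0.08, edgeR adjusted p = 1.13e-12). In ESCs Myc was also higher in KD cells (0.84), where Cdk4 was at −0.20 and not called. From ESCs to EBs Myc was at 0.80 in WT and 1.09 in KD cells, and Cdk4 at −1.43 and −0.59. The part of Myc in the Cdk4 level was not tested.

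Cdkn1a, which encodes the CDK inhibitor p21, a main target of p53 (ENSMUSG00000023067, chr17:29090979-29100722, plus strand), fell in KD EBs. It was at 158, 157 and 155 CPM in EB WT and at 95.6, 99.8 and 101 CPM in EB KD libraries, with each KD library below each WT library (−0.73, SE 0.04, edgeR adjusted p = 1.38e-16). Trp53, the gene of p53, named here after its value was seen, was itself higher in KD EBs (0.46, SE 0.04, edgeR adjusted p = 1.51e-11). Mdm2, a p53 target that encodes its ubiquitin ligase, was lower (−0.58, SE 0.04, edgeR adjusted p = 3.90e-14). The part of p53 in the Cdkn1a level was not tested. In ESCs Cdkn1a was at 208, 241 and 216 CPM in WT and 205, 201 and 214 CPM in KD libraries. The groups overlapped (−0.09, SE 0.08, edgeR adjusted p = 0.511), and the sign turned with library size scaling (0.02).

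Cdkn1b, which encodes p27 (ENSMUSG00000003031, chr6:134920401-134925513, plus strand), was the one inhibitor member that was higher in KD EBs, and by little. Its levels were 71.9, 71.9 and 79.4 CPM in EB WT and 85.3, 87.5 and 86.2 CPM in EB KD libraries. The groups did not overlap (0.15, SE 0.05, edgeR adjusted p = 0.00474), but the call was lost in the fit of all 12 libraries (0.21, adjusted p = 0.199). In ESCs it was at 14.9, 9.78 and 15.9 CPM in WT and 16.1, 13.3 and 14.4 CPM in KD libraries. Those groups overlapped (0.11, SE 0.19, edgeR adjusted p = 0.767), with −0.07 without ESC WT replicate 2.

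Cdkn2a was the member called in ESCs. This gene (ENSMUSG00000044303, chr4:89274471-89294653, minus strand) gives 2 proteins from separate first exons, the INK4 inhibitor p16 and ARF, which acts on MDM2. The deposited gene counts join both transcripts. Its levels were 16.1, 16.0 and 17.5 CPM in ESC WT and 9.32, 9.06 and 7.19 CPM in ESC KD libraries, with counts of 195 to 519. All 3 KD libraries were below all WT libraries (−0.95, SE 0.16, edgeR adjusted p = 0.0310). The log2 fold change stayed between −1.02 and −0.84 in 11 other settings, of which 5 lost the call. These were library size scaling (adjusted p = 0.0958) and the fits without ESC WT replicate 1 (0.0692) or ESC KD replicates 1, 2 or 3 (0.165, 0.192 and 0.212). In EBs Cdkn2a was low, with 80, 51 and 67 counts in WT and 48, 41 and 48 counts in KD libraries, or 1.69 ± 0.36 and 1.25 ± 0.06 CPM (SD, n = 3). The difference was not called (−0.50, SE 0.30, edgeR adjusted p = 0.168). In CPM the KD libraries lay just below the WT libraries, without overlap.

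The windows before both Cdkn2a starts are shown because the counts cannot assign the ESC difference to one of them. Both are given 5′ to 3′ on the minus strand. The ARF window, chr4:89294654-89294869, ends before 34 bases that are exonic in the count tables' annotation, and the p16 window is chr4:89282193-89282442. Capitals mark a GC box and the E2F motif, here as TTCCCGC on the opposite strand. That motif lay in 3.82% of all windows and in no other member window. The ARF window, of 78.4% G and C over its 250 bases, held 2 GC boxes, the second of them in the bases not printed, while the p16 window, of 60.0% G and C, held none of the 5 motifs.
Cdkn2a, ARF start: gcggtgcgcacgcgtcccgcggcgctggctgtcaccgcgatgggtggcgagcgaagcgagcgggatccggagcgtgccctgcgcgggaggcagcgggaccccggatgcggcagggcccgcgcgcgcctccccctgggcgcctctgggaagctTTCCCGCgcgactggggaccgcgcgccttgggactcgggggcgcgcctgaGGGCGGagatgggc
Cdkn2a, p16 start: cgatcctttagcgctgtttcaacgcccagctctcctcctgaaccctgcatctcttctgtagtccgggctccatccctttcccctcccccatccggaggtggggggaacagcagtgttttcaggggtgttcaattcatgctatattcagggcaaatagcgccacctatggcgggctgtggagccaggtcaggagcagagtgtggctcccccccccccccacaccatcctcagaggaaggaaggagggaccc

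Cdkn2b, which encodes the INK4 inhibitor p15 (ENSMUSG00000073802, chr4:89306289-89311032, minus strand) next to Cdkn2a, was detected at low counts. Its counts were 58, 108 and 82 in EB WT and 47, 51 and 40 in EB KD libraries, or 1.51, 2.91 and 1.98 against 1.27, 1.46 and 1.07 CPM. The groups came close without overlap (−0.81, SE 0.30, edgeR adjusted p = 0.0215). The call was lost without EB WT replicate 2 (−0.53, adjusted p = 0.193), with all 12 libraries fitted together (−0.75, 0.0794) and without EB KD replicate 3 (−0.70, 0.0799). In ESCs the levels of 3.45, 3.55 and 3.07 CPM in WT and 3.33, 2.00 and 2.25 CPM in KD libraries overlapped (−0.41, SE 0.30, edgeR adjusted p = 0.449).

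Rb1, the target of these kinases (ENSMUSG00000022105, chr14:73183673-73325822, minus strand), was lower in KD EBs, at 13.1, 15.6 and 15.3 CPM against 21.1, 22.7 and 19.6 CPM in EB WT. The KD libraries were all below the WT libraries (−0.59, SE 0.09, edgeR adjusted p = 2.42e-06). Named after their values were seen, its relative Rbl2, the gene of the pocket protein p130, was higher (0.55, SE 0.17, edgeR adjusted p = 0.00740), as was Rbl1, the gene of p107 (0.18, SE 0.07, edgeR adjusted p = 0.0257). In ESCs Rb1 was at 9.30, 9.06 and 9.57 CPM in WT and 8.70, 6.51 and 7.44 CPM in KD libraries, which lay below without overlap, a difference that did not pass (−0.29, SE 0.18, edgeR adjusted p = 0.362).

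**Figure D3:**
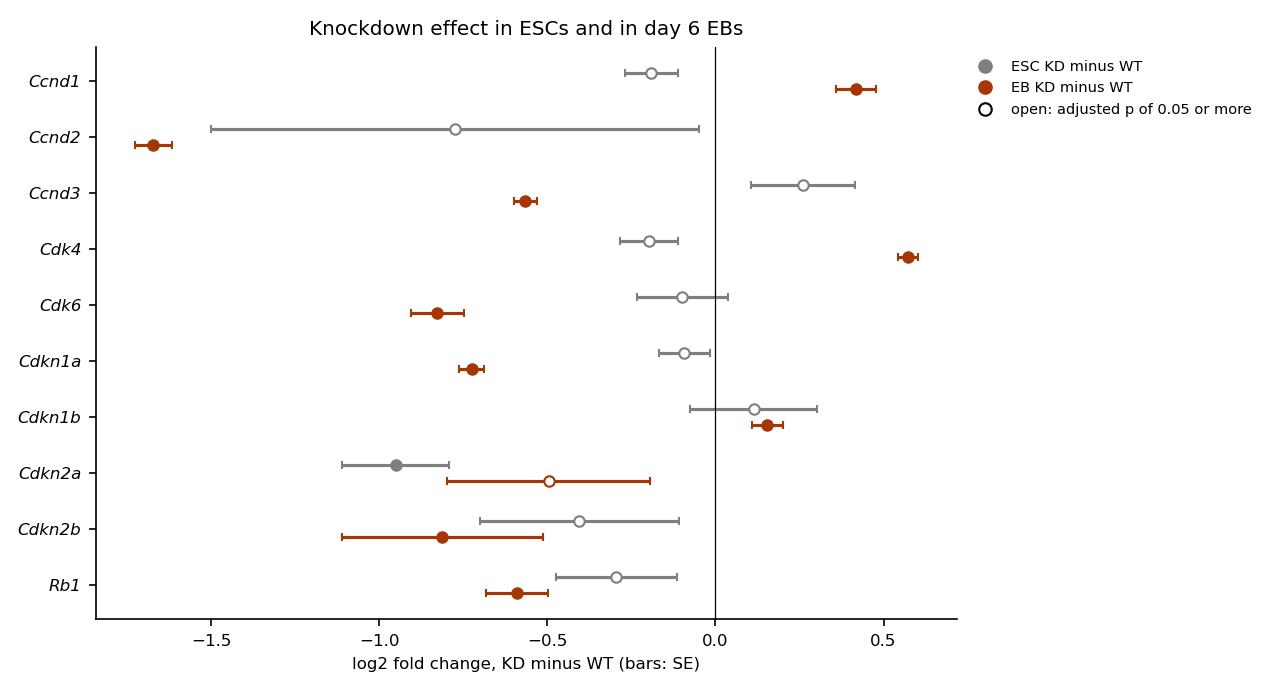
Log2 fold change of KD minus WT (horizontal axis) for the 10 genes (vertical axis). ESCs are in grey and day 6 EBs in dark orange. Bars are the SE, worked back from the test of 3 against 3 libraries. Filled points have an edgeR adjusted p under 0.05. In EBs 9 points are filled, from −1.67 for Ccnd2 to 0.57 for Cdk4, and in ESCs the one filled point is Cdkn2a at −0.95.

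Exons of Ccnd1, Ccnd2, Ccnd3, Cdk4, Cdk6 and Rb1 overlap exons of genes on the opposite strand, by 361 to 1100 bases per neighbour. Since no strand was used in counting, reads from those bases cannot be assigned by strand. The overlapping neighbours of Ccnd2 and Cdk6 had at most 4 counts in any library, and that of Ccnd1 had 423 to 965. Bysl, which overlaps Ccnd3, had 1904 to 4384 counts, and Tspan31, which overlaps Cdk4, had 507 to 2072. For Rb1, itself at 163 to 843 counts, the neighbours Rcbtb2 (139 to 2811 counts) and Lpar6 (60 to 1653 counts) reached higher counts than the gene.

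Whether the KD effect itself differed between stages was tested in a single fit of all 12 libraries. It differed for 5 of the 10 genes, 2 higher and 3 lower in EBs relative to ESCs, where 23.0% of 18975 tested genes were called, 12.8% higher and 10.2% lower. Cdk4 (0.84, SE 0.08, edgeR adjusted p = 5.19e-06) and Ccnd1 (0.68, SE 0.10, adjusted p = 1.40e-04) were the 2 with a higher KD effect in EBs. Ccnd3 (−0.76, SE 0.18), Cdk6 (−0.66, SE 0.17) and Cdkn1a (−0.57, SE 0.08) had a lower one, with edgeR adjusted p of 0.00830, 0.00998 and 1.57e-04. The Ccnd3 call was lost without the filter on low counts (adjusted p = 0.0506). For Ccnd2 the difference of −0.88 (SE 0.68, edgeR adjusted p = 0.401) rested on its few ESC counts, and without ESC WT replicate 2 it was −2.11 (adjusted p = 1.60e-05). Cdkn2a (0.52, SE 0.27), Cdkn2b (−0.34, SE 0.44), Rb1 (−0.23, SE 0.19) and Cdkn1b (0.11, SE 0.18) were not called, with edgeR adjusted p from 0.193 to 0.726. The Cdkn1b value had the opposite sign with library size scaling (−0.04) and without ESC WT replicate 1 (−0.007) or 3 (−0.04).

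The same contrast can be read as the difference between WT and KD cells in the change from ESCs to EBs. In WT cells Ccnd2, Cdk6, Cdkn1b and Rb1 rose and Ccnd1, Ccnd3, Cdk4, Cdkn1a and Cdkn2a fell, so 9 of 10 were called, where 79.8% of 18975 tested genes were. Ccnd2 rose by 6.02 on the log2 scale (SE 0.41, edgeR adjusted p = 4.42e-08), or by 7.18 without ESC WT replicate 2. Cdkn1b rose by 2.45 (SE 0.13), Rb1 by 1.19 (SE 0.13) and Cdk6 by 0.53 (SE 0.12), with edgeR adjusted p from 7.87e-11 to 6.67e-04. Cdkn2a fell by 3.29 (SE 0.20), Ccnd1 by 1.73 (SE 0.07) and Cdk4 by 1.43 (SE 0.06), with edgeR adjusted p from 2.03e-12 to 2.20e-10. Library size scaling raised the median of all genes by 0.53 in this comparison. On that scale the falls of Ccnd3 (−0.57, SE 0.13, edgeR adjusted p = 9.36e-04) and Cdkn1a (−0.50, SE 0.06, edgeR adjusted p = 8.54e-07) were not retained, at −0.06 and 0.04. Cdkn2b did not pass (−0.65, SE 0.31, edgeR adjusted p = 0.0634), but was called by DESeq2 (adjusted p = 0.0271) and by edgeR without EB WT replicate 2 (0.0236).

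In KD cells 9 of 10 genes were called as well, 3 higher and 6 lower, where again 79.8% of all tested genes were. Ccnd2 rose by 5.13 (SE 0.44, edgeR adjusted p = 4.17e-07), Cdkn1b by 2.57 (SE 0.14, edgeR adjusted p = 4.88e-11) and Rb1 by 0.96 (SE 0.14, edgeR adjusted p = 8.90e-06). Cdk6, which rose in WT cells, was at −0.13 (SE 0.12, edgeR adjusted p = 0.335), with the opposite sign under library size scaling (0.24). Cdk4 fell by 0.59 (SE 0.06), Ccnd1 by 1.05 (SE 0.07), Ccnd3 by 1.33 (SE 0.13) and Cdkn1a by 1.07 (SE 0.06), with edgeR adjusted p from 8.79e-11 to 4.15e-07. Cdkn2a fell by 2.76 (SE 0.20, edgeR adjusted p = 2.75e-09) and Cdkn2b by 0.99 (SE 0.32, edgeR adjusted p = 0.0104), the latter not called with library size scaling (adjusted p = 0.0847).

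**Figure D4:**
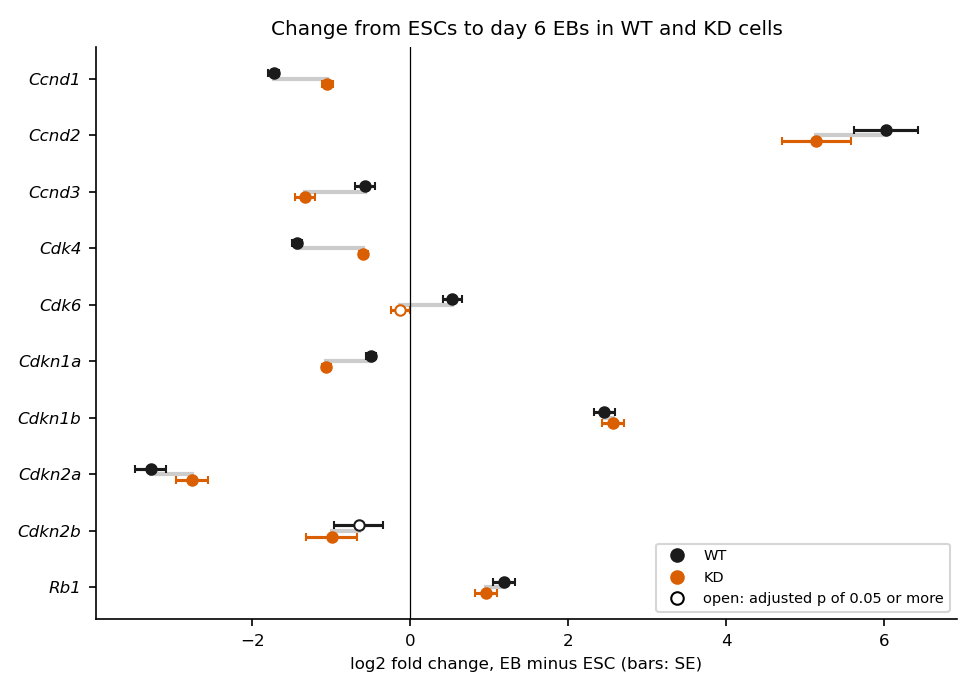
Log2 fold change of EB minus ESC (horizontal axis, bars are SE) for the 10 genes (vertical axis) in WT cells (black) and KD cells (orange), joined by a grey line. Filled points have an edgeR adjusted p under 0.05. Cdk4 lies at −1.43 in WT and −0.59 in KD cells, and Ccnd3 at −0.57 in WT and −1.33 in KD cells.

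The order of the group levels differed between members. Ccnd1 and Cdk4 ran from ESC WT through ESC KD and EB KD down to EB WT, with no overlap between neighbouring groups. Ccnd2 and Rb1 were highest in EB WT and then EB KD. Rb1 was lowest in ESC KD, while the ESC WT and ESC KD libraries of Ccnd2 overlapped. Ccnd3 was highest in ESC KD and lowest in EB KD. Between ESC WT and ESC KD the differences of Ccnd1, Cdk4, Ccnd3 and Rb1 were not called with all 6 libraries (edgeR adjusted p from 0.195 to 0.362). Per length, Cdk4 was the most abundant member in each group, at 322 ± 28.1 CPM per kb in ESC WT and 120 ± 1.61 CPM per kb in EB WT (SD, n = 3), followed by Cdkn1a at 99.7 ± 7.88 and 70.5 ± 0.62 CPM per kb. Ccnd2 was the lowest in both ESC groups, Cdkn2a in EB WT at 1.44 ± 0.31 CPM per kb, and Cdkn2b in EB KD at 0.91 ± 0.14 CPM per kb. Cdkn2a and Cdkn2b did not differ beyond their spread in EB WT, where Cdkn2b was at 1.53 ± 0.51 CPM per kb, and their libraries also overlapped in EB KD, where Cdkn2a was at 1.07 ± 0.05 CPM per kb.

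Genes whose log2 CPM followed a member most closely over the 12 libraries were looked up among 10507 or 10508 genes. They were Gcat and Nasp for Ccnd1, Nlk and Plekhh2 for Ccnd2, and Inip and Gtse1 for Ccnd3. They were Renbp and Glmp for Cdk4, Mapk3 and Tac2 for Cdk6, Sult4a1 and Myl7 for Cdkn1a, and Tbx20 and Rab6b for Cdkn1b. For Cdkn2a, Cdkn2b and Rb1 they were Sdc4 and Htra1, Ttc39c and Lyrm9, and Pfkfb3 and Afap1l1. Pearson's r ran from 0.926 for Lyrm9 with Cdkn2b to 0.998 for Tbx20 with Cdkn1b. The 12 libraries fall into 2 stages, which sets much of any such r.

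Beyond the 10 genes, the wider G1/S machinery moved both ways in KD EBs. Of 38 further G1/S genes, 37 were tested and 17 rose, 13 fell and 7 did not pass, with a median log2 fold change of 0.11, where 55.7% of all tested genes were called, 28.0% higher and 27.7% lower. Skp2 was listed at 0 counts in each library. In the fit of all 12 libraries 19 of the 37 were called, as were 6650 of all 18975 tested genes. The largest fall was that of Cdkn1c, the gene of the CIP/KIP inhibitor p57, from 134, 137 and 138 CPM in EB WT to 12.7, 12.7 and 13.7 CPM in EB KD libraries (−3.45, SE 0.05, edgeR adjusted p = 2.49e-30). Next came the INK4 gene Cdkn2c (−0.64, SE 0.24), Mdm2 and Mnat1, a subunit of the CDK-activating kinase (−0.56, SE 0.05). The Cdkn2c call (edgeR adjusted p = 0.0240) was lost in 4 of 11 other settings. The largest rises after Myc were those of Fbxo4, an F-box protein gene (1.03, SE 0.26, edgeR adjusted p = 0.00111), the Polycomb gene Bmi1, a known repressor of Cdkn2a (0.93, SE 0.08, edgeR adjusted p = 5.06e-11), and Mycn (0.60, SE 0.04, edgeR adjusted p = 7.96e-13).

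The cyclin E genes, which act after the D cyclins, split in KD EBs. Ccne1 fell (−0.40, SE 0.05, edgeR adjusted p = 8.38e-08) and Ccne2 rose (0.32, SE 0.08, edgeR adjusted p = 0.00164), while their kinase gene Cdk2 rose (0.25, SE 0.04, edgeR adjusted p = 4.78e-06). E2f1 was at 0.12 (SE 0.06, edgeR adjusted p = 0.111). Of 14 replication genes known to be driven by E2F, 4 rose and 2 fell, with a median of −0.01, a smaller share called than the 55.7% of all tested genes. Chosen as examples after their values were seen, thymidylate synthase Tyms (0.55, SE 0.05) and ribonucleotide reductase Rrm2 (0.36, SE 0.04) were among the rises and the licensing factor Cdt1 (−0.23, SE 0.04) among the falls, with edgeR adjusted p from 1.81e-11 to 1.53e-05. The 8 that did not pass included Pcna (0.04, SE 0.03) and Mcm2 (−0.07, SE 0.03).

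**Figure D5:**
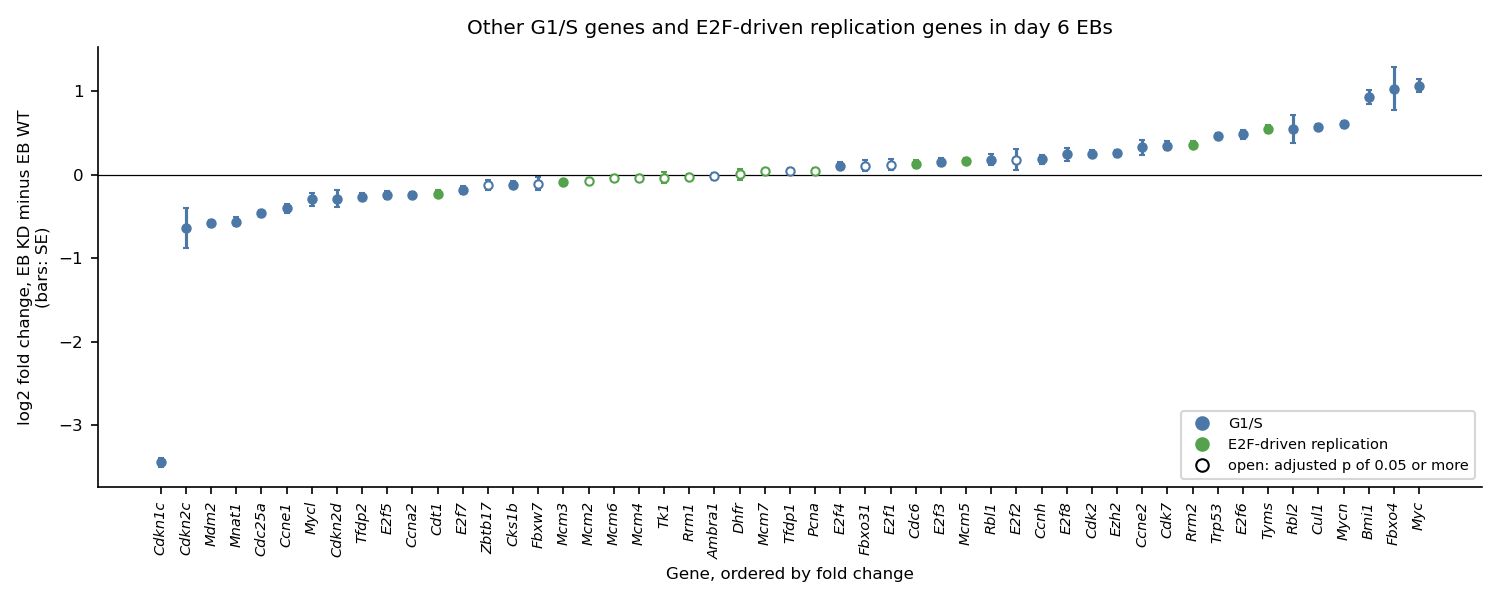
Log2 fold change of EB KD minus EB WT (vertical axis, bars are SE) for 37 further G1/S genes (blue) and 14 E2F-driven replication genes (green), ordered by fold change along the horizontal axis. Filled points have an edgeR adjusted p under 0.05. Cdkn1c at −3.45 lies apart, and the other genes lie between −0.64 and 1.06.

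In ESCs 2 of the 37 tested G1/S genes were called, where 0.603% of all tested genes were. Myc rose, from 10.3, 8.25 and 10.2 CPM in WT to 17.5, 18.2 and 15.4 CPM in KD libraries (0.84, SE 0.16, edgeR adjusted p = 0.0435), and Cdkn1c fell, from 4.23, 5.43 and 3.67 to 1.55, 1.16 and 0.96 CPM (−1.85, SE 0.32, edgeR adjusted p = 0.0349). Neither pair of groups overlapped, and each call was lost with library size scaling and without ESC WT replicate 1 or any 1 of the 3 ESC KD libraries. Of the 14 replication genes 0 were called by edgeR, 4 had an unadjusted p under 0.05, and 0 were called by DESeq2. Over all 16081 tested genes, 3447 had an unadjusted edgeR p under 0.05 and DESeq2 called 1030. Ccne1 (−0.16, SE 0.07), Ccne2 (−0.16, SE 0.21), Cdk2 (0.16, SE 0.09) and E2f1 (−0.16, SE 0.08) did not pass, with edgeR adjusted p from 0.237 to 0.707. Without ESC WT replicate 2, 4 of the G1/S genes and 2 of the replication genes were called, as were 1557 of all 16648 tested genes.

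From ESCs to EBs the replication genes fell in both genotypes, 11 of 14 in each, with 2 rises. Their median was −1.09 in WT and −1.01 in KD cells, against 0.17 and 0.15 over all tested genes. Library size scaling raised the median of all genes by 0.53 in WT and 0.37 in KD cells. The called fall of Pcna in WT cells (−0.41, SE 0.05) was smaller than that shift. The further G1/S genes had 22 rises and 10 falls of 37 in each genotype. Of all tested genes 79.8% were called in each genotype, 42.5% higher and 37.3% lower. The largest falls in WT cells were those of E2f2 (−2.88, SE 0.14), the thymidine kinase gene Tk1 (−2.33, SE 0.08), Ccne1 (−2.12, SE 0.06) and Tyms (−1.83, SE 0.07). The largest rises were those of Cdkn1c (4.95, SE 0.13), E2f7 (2.44, SE 0.13), E2f5 (2.35, SE 0.13) and Bmi1 (2.06, SE 0.18). In KD cells the falls were led by Ccne1 (−2.29, SE 0.06), E2f2 (−2.26, SE 0.14), Tk1 (−2.08, SE 0.08) and Cdt1 (−1.63, SE 0.05), and the rises by Cdkn1c (3.43, SE 0.16), Bmi1 (2.45, SE 0.17), E2f7 (2.41, SE 0.13) and Ccne2 (2.24, SE 0.13). All 16 of these values had an edgeR adjusted p of 2.01e-08 or less. Cdk2 rose in both (0.34, SE 0.07, and 0.49, SE 0.07), Ccne2 rose in WT cells (1.70, SE 0.13), and E2f1 fell in both (−1.65, SE 0.07, and −1.30, SE 0.07), with edgeR adjusted p of at most 3.96e-04.

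The KD effect differed between stages for 11 of the 37 G1/S genes, 7 higher and 4 lower in EBs, and for 3 of the 14 replication genes, 2 higher and 1 lower. Both counts lie near the 23.0% of all tested genes that were called, 12.8% higher and 10.2% lower. Without ESC KD replicate 2 the first count was 6, where 3677 of all 19727 tested genes were called. Without ESC WT replicate 2 the second was 7, where 5507 of all 19729 were. Cdkn1c (−1.52, SE 0.22, edgeR adjusted p = 1.51e-04), Mdm2 (−0.66, SE 0.11, 4.92e-04), Mnat1 (−0.55, SE 0.10, 0.00114) and E2f5 (−0.65, SE 0.18, 0.0162) were the lowest. Fbxo4 (1.74, SE 0.58, edgeR adjusted p = 0.0408), Tyms (0.82, SE 0.10, 3.20e-05), Cul1, a scaffold of SCF ubiquitin ligases (0.64, SE 0.10, 3.47e-04), and E2f2 (0.61, SE 0.19, 0.0293) were the highest. Fbxo4 lost its call in 11 of 17 other settings and E2f2 in 6. Ccne2 (0.55, SE 0.18, 0.0352) and E2f1 (0.35, SE 0.09, 0.0140) were also called, Ccne1 (−0.18, SE 0.08, 0.142) and Cdk2 (0.16, SE 0.10, 0.279) were not, and Ccne2 lost its call in 12 of the 17 settings. E2f1 lost its call with library size scaling (0.18, edgeR adjusted p = 0.219) and without ESC KD replicate 2 (0.28, adjusted p = 0.0632). Ccne1 was called with library size scaling (−0.35, edgeR adjusted p = 0.00643) and without ESC WT replicate 2 (−0.26, adjusted p = 0.00544), and Cdk2 was at −0.000262 with library size scaling.

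Markers of cell types moved with the EB comparison. The core pluripotency markers Pou5f1 (0.30, SE 0.06, edgeR adjusted p = 1.55e-04) and Sox2 (0.93, SE 0.06, edgeR adjusted p = 3.6e-15) were both called higher in KD EBs. Naive pluripotency markers (11 of 12 called higher, 0 lower) summed to 289 to 291 CPM in EB WT and 474 to 483 CPM in EB KD libraries, and mesenchyme markers (7 of 8 higher, 0 lower) to 416 to 429 and 1504 to 1563 CPM. Endothelial and blood markers (4 higher and 2 lower of 6 tested) summed to 116 to 123 and 220 to 231 CPM. The globin genes Hba-x and Hbb-y, at 0 counts in EB WT, did not pass the filter on low counts in this comparison. Cardiac markers (0 higher and 4 lower of 4) summed to 39.6 to 42.5 and 8.20 to 10.7 CPM, extraembryonic endoderm markers (4 higher and 1 lower of 6) to 465 to 478 and 766 to 797 CPM, and neural markers (2 higher and 1 lower of 5 tested) to 58.0 to 62.3 and 76.6 to 80.3 CPM. The part of these cell types in the changes of the G1 genes was not tested. In ESCs 0 of these markers were called by edgeR between KD and WT, while 8 of the 12 naive markers had an unadjusted p under 0.05 and DESeq2 called 4 of them. Of all 16081 genes tested in ESCs, 3447 had an unadjusted edgeR p under 0.05 and DESeq2 called 1030. Mesenchyme markers summed to 2.18 to 4.23 CPM, with Postn and Prrx1 at 0 counts in all 6 libraries.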

How the data were processed

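RNA was selected with poly-T beads, made into NEBNext Ultra libraries and read in pairs, per the labels' protocols. The deposited values are raw counts per gene, made by the authors with featureCounts 2.0.3 on the Ensembl GRCm38 release 90 annotation without strand, per the file headers. Reads were aligned with HISAT2 2.1.0 to mm10, per the submitters' processing notes, which also name DESeq2 1.18.1. The deposited tables also give each gene's merged exon length. Even counts were 61.7% to 68.7% of the values from 1 to 10, against 48.0% to 51.6% of those above 100 and up to 1000, so both mates of a pair appear to have been counted, and counts overstate the number of fragments. Symbols were matched for 52403 of 52636 genes.

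Counts were tested with edgeR 4.0.16 in R 4.3.3 (TMM, robust quasi-likelihood F-test, filterByExpr). The filter's minimum count was set to 10, which need not be met in every library, and its minimum total to 15. KD was compared with WT within a stage on 6 libraries, and stage changes and the difference of KD effects on all 12. Shares used the exact two-sided permutation test, whose smallest p with 3 against 3 is 0.10. The scripts were tested on simulated data. DESeq2 1.42.0, library size scaling, no filter, a replicate block, other sets of libraries and leaving out each library were tried as alternatives. The series states 3 biological replicates per group. Where these are not separate cultures, p-values measure only the spread between libraries.

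The members and gene lists were chosen with earlier results of these data known. All 10 members are named in every comparison. Of the further G1/S and E2F-driven genes, the 4 largest called rises and the 4 largest called falls are named, with Ccne1, Ccne2, Cdk2, Cdkn1c and E2f1, and for each member the 2 genes with the highest Pearson's r of log2 CPM (prior count 2).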

Additional observations from a re-analysis of the deposited data

Results flagged for a closer look

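The KD effect differed between EBs and ESCs for 5 genes by the test of the difference itself (edgeR, 3 libraries in each of 4 groups). Of all 18975 tested genes 23.0% were called by that test. Cdk4 differed by 0.84 and Ccnd1 by 0.68 on the log2 scale. For both, KD lay above WT in 3 of 3 EB libraries and below WT in 3 of 3 ESC libraries. Within ESCs neither difference was called with all 6 libraries (edgeR adjusted p = 0.216 for Cdk4 and 0.195 for Ccnd1). The nearest ESC WT and KD libraries of Ccnd1 were at 115 and 114 CPM. Ccnd3 differed by −0.76, Cdk6 by −0.66 and Cdkn1a by −0.57, each with KD below WT in 3 of 3 EB libraries. The cell type markers that moved with the EB comparison are given with the results, and their part in these differences was not tested.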

How the results depend on the processing

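In ESCs the number of members called was 0 with library size scaling, 2 in the fit of all 12 libraries and 0 to 2 with 1 library left out, against 1. G1/S calls there were 0 with library size scaling, 4 with no filter, 5 with all 12 libraries and 0 to 4 with 1 library left out, against 2. E2F-driven calls were 1 with no filter, 1 with all 12 libraries and 0 to 2 with 1 left out, against 0. Calls over all genes, 97 as reported, were 1030 with DESeq2, 36 with library size scaling, 1769 with no filter, 1999 with all 12 libraries and 8 to 1557 with 1 left out, the highest without ESC WT replicate 2 and the lowest without ESC KD replicate 2 or 3. In EBs 19 G1/S genes were called with all 12 libraries, against 30, and over all genes 6650, against 9667. The difference between stages gave 6 to 16 G1/S calls and 2 to 7 E2F-driven calls with 1 library left out. Calls over all genes there ran from 3389 to 5507.

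Signs turned without ESC WT replicate 2 for the ESC values of Ccnd2 (0.510), Cdk6 (0.0284), Cdkn1b (−0.0728) and the Ccnd2 share (0.0349 points), whose lowest and highest values with 1 library left out were −1.21 and 0.510, −0.182 and 0.0284, −0.0728 and 0.246, and −0.202 and 0.0349. Library size scaling turned Cdk6 (0.0222) and Cdkn1a (0.0244) in ESCs, Cdkn1a from ESC to EB in WT (0.0404), Cdk6 from ESC to EB in KD (0.24), and the stage differences of Cdkn1b (−0.0387) and Cdk2 (−0.000262). That of Cdkn1b also turned without ESC WT replicate 1 (−0.00702) or 3 (−0.0403), within a range of −0.0403 to 0.264, and the EB share of Ccnd3 turned without division by gene length (1.06 points). The cause was not tested.

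Library size scaling moved the median of all genes by 0.11 in ESCs, 0.53 and 0.37 from ESC to EB in WT and KD, and −0.16 in the stage difference. Calls that were higher made up 27.8% in ESCs, but 48.5% with all 12 libraries, 39.0% with no filter, and 12.5% to 40.1% with 1 library left out. From ESC to EB in WT they made up 53.3%, or 65.2% with library size scaling, and in the stage difference 55.6%, or 35.3%.

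Same-numbered WT and KD libraries deviated together with r of −0.017 to 0.019 within the stages, so the numbers were not taken as pairs. With the replicate block 266 genes were called in ESCs, Ccne2 lost its call in the stage difference (adjusted p = 0.0530, edgeR) and no member's call changed. Low counts limit Ccnd2 in ESCs and Cdkn2a and Cdkn2b in EBs.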
